A study of Mus musculus with 2 samples.

Results

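The T cell coreceptor genes Cd4, Cd8a and Cd8b1 and the lineage factors Zbtb7b (ThPOK) and Runx3 were examined in splenic Treg cells isolated on day 7 after islet transplantation. These 5 genes, of 20938 in the deposited tables, were selected by gene symbol. They were chosen from a list drawn up with the rise of Cd8a between these libraries already known, so their changes are described here without a test. RNA-seq was done on 1 library of each genotype, Foxp3-Mettl14f/+ cKO mice and their littermate controls, called the cKO and the control library. The cKO mice were on the C57BL/6J background and carried 1 floxed Mettl14 allele together with Cre recombinase driven by the Foxp3 promoter, so recombination was directed to cells that express Foxp3. The littermate controls are given as Mettl14f/f by the methods and as wild type by the sample label, whereas the label of the cKO library names a Foxp3 knockdown. All recipients were diabetic after streptozotocin, had received BALB/c islets under the kidney capsule, and were not treated with anti-CD45RB and anti-CD40L antibodies. The age of the mice and the number of mice behind each library are not given in the sources used here. Cells were enriched with a magnetic kit that first depleted cells other than CD4+ T cells and then selected CD25+ cells. CD8 T cells, B cells and macrophages are among the cells to be depleted, so the isolation itself bore on CD8 as well as CD4.

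CD4 and CD8 are the coreceptors that bind MHC class II and MHC class I next to the T cell receptor and bring the kinase Lck to it. CD8 on conventional cytotoxic T cells is a heterodimer of an alpha and a beta chain, encoded by Cd8a and Cd8b1. The CD8-alpha+ dendritic cells of the mouse spleen (cDC1) and some intraepithelial lymphocytes carry the alpha chain without the beta chain. In the thymus ThPOK commits cells to the CD4 lineage and Runx3 to the CD8 lineage, where Runx3 silences Cd4. Reads on Cd8b1 beside those on Cd8a therefore bear on which kind of cell the Cd8a transcripts came from.

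On GRCm38, Cd8b1 (ENSMUSG00000053044.8) lies at chr6:71322788-71337494 and Cd8a (ENSMUSG00000053977.13) at chr6:71373427-71379173, both on the plus strand and 35.9 kb apart. Cd4 (ENSMUSG00000023274.14) lies on the minus strand of the same chromosome at chr6:124864692-124888221. Zbtb7b (ENSMUSG00000028042.15) is at chr3:89377644-89394776 on the minus strand, and Runx3 (ENSMUSG00000070691.10) at chr4:135120652-135177990 on the plus strand. No annotated gene overlapped Cd4, Cd8a or Cd8b1. The antisense genes Gm15417 and Gm16224 overlap Zbtb7b and Runx3, and whether the counting used strand is not given in the sources used here, so reads from both strands cannot be told apart at these genes.

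The coding sequences show how the coreceptor chains differ. A cysteine codon, any codon, a second cysteine codon and a proline codon in frame encode the motif by which the cytoplasmic tails of CD4 and CD8 alpha bind Lck. This motif occurred 1 time in the 457 codons of Cd4 and 1 time in the 247 codons of Cd8a, and 0 times in the 213 codons of Cd8b1. Of 16302 measured genes with a coding transcript, 2.57% held it. The stretches below are from the GENCODE vM21 transcripts, written 5′ to 3′ on the strand of the gene, with the 4 codons in capitals. The Cd4 stretch is in exon 9 of 10, at chr6:124866604-124866626.
Cd4: aagaagaccTGCCAGTGCCCCca
The Cd8a stretch is the whole of exon 4 of 5, 31 bases long, at chr6:71375888-71375918.
Cd8a: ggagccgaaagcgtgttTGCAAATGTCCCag
Another annotated coding transcript of Cd8a skips this exon. The deposited tables hold 1 value per gene, so the forms with and without it were not separated here.

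RefSeq promoter windows, from 250 bases before to 50 bases after each transcript start on GRCm38.p6, were matched for 3 of the 5 genes (Cd8a, Zbtb7b and Runx3). Among 5 such windows, 2 held the core RUNX motif TGTGGT on either strand and 1 held the E-box CAGCTG. Over all 32851 windows of this length the shares were 16.8% and 16.3%. The window of the most changed of these genes and the windows that held the RUNX motif are shown, with every TGTGGT, its reverse ACCACA and CAGCTG in capitals. Cd8a, at chr6:71373177-71373476 on the plus strand, had 1 E-box and 0 RUNX motifs in these letters.
Cd8a: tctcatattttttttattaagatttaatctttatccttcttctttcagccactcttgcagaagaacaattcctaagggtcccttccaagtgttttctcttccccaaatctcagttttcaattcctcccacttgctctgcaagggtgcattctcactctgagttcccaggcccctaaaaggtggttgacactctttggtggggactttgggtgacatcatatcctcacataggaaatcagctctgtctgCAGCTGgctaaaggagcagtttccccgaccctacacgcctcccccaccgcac
The upstream of the Runx3 windows, at chr4:135120395-135120694 on the plus strand, held 2 RUNX motifs.
Runx3: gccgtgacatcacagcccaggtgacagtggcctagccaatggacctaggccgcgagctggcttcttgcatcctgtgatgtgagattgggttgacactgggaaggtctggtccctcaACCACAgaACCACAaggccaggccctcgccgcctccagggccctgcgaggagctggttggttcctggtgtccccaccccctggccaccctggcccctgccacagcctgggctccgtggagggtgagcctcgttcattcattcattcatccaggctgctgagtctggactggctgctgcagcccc
The other Runx3 window, further into the gene, held 0. Of the Zbtb7b windows, the one at chr3:89387622-89387921 on the minus strand held 1.
Zbtb7b: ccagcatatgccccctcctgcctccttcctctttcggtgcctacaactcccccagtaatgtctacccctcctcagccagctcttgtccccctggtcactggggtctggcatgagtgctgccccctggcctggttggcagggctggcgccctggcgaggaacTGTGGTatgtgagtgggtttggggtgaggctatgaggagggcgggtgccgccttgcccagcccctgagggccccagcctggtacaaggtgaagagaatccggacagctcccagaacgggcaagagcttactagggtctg

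Each deposited level is a read count scaled by a size factor, and 100% of the values gave whole reads, to within 0.01 reads, once divided by the worth of 1 read in that library. The reads so recovered came to 20239325 for the control against 18327535 for the cKO library. Changes are log2 ratios of cKO to control after adding 1 to each level. Intervals are 95% exact Clopper-Pearson intervals for ratios and exact Poisson intervals for levels, and cover counting error only. These reads carry no molecular identifiers and cannot be counted as separate molecules, so the intervals may be too narrow even for that error. With 1 library per genotype no difference has a replicate check, and a change is called here when it is at least 1.5-fold. Mettl14, the targeted gene, had levels of 917 (control) and 741 (cKO), a log2 change of -0.31 (-0.45 to -0.16). Foxp3, which the label of the cKO library names, had levels of 1497 and 1548 (log2 change 0.05, -0.06 to 0.15).

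Both CD8 chains rose in the cKO library, and by similar amounts. Cd8a, which encodes the alpha chain, had a level of 434 (395 to 476) in the control against 2074 (1980 to 2172) in the cKO library, from 449 and 1824 reads. This was 4.77-fold higher, a log2 change of 2.25 (2.11 to 2.41). Cd8b1, which encodes the beta chain, had a level of 353 (318 to 391) in the control against 1942 (1851 to 2037) in the cKO library, from 365 and 1708 reads. It was 5.49-fold higher, a log2 change of 2.46 (2.30 to 2.63). For both chains the counting intervals of the libraries were far apart. Of the 16659 genes whose mean level was 1 or more, 17.2% reached 1.5-fold upward in cKO, and 725 genes changed upward more than Cd8a and 673 more than Cd8b1. Cd4 fell, from a level of 8098 (7925 to 8273) to 5297 (5146 to 5451), or from 8371 to 4658 reads. Its log2 change was -0.61 (-0.66 to -0.56), just past 1.5-fold, and 24.2% of the genes tested were at least 1.5-fold lower. The interval reaches inside 1.5-fold, and with the T cell core genes scaled to be equal the change of Cd4 was -0.29, which is not past 1.5-fold. In all, 3 of the 5 genes were past 1.5-fold in either direction, beside 41.4% of all genes tested, and since this contrast chose them nothing is read from that count. In bulk libraries such as these, fewer cells of a type and less RNA per cell cannot be told apart.

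**Figure D1:**
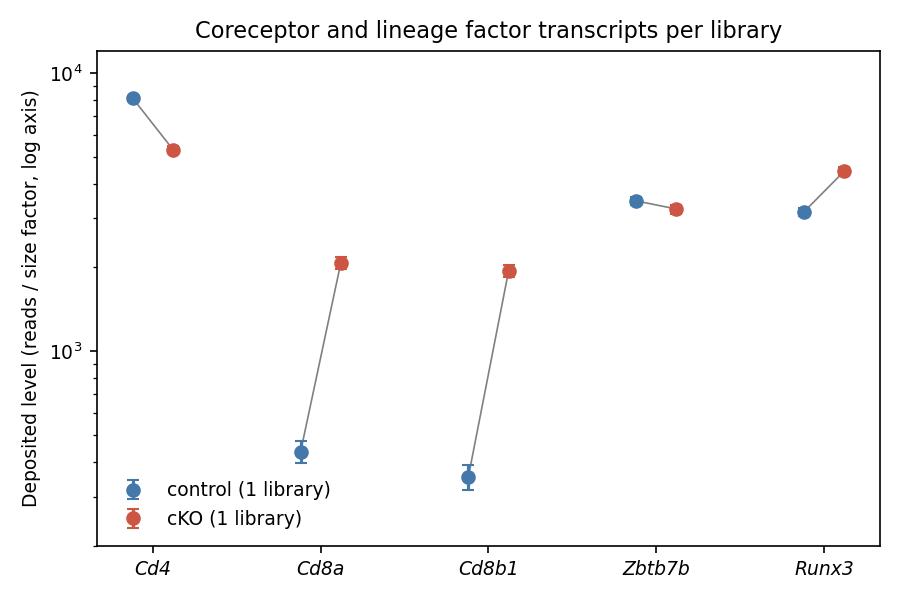
Deposited level (reads divided by the library's size factor, log axis) of each gene in the control library (blue) and the cKO library (red), 1 library each, with 95% exact Poisson intervals. Cd8a and Cd8b1 move from 434 and 353 to 2074 and 1942, while Cd4 moves from 8098 to 5297 and Zbtb7b and Runx3 stay within 1.5-fold.

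The ratio of the chains within a library does not depend on how the libraries were scaled. There were 0.813 Cd8b1 reads per Cd8a read in the control (0.706 to 0.935) against 0.936 in the cKO library (0.876 to 1.001). The cKO ratio was 1.15 times the control ratio, with an exact conditional interval of 0.986 to 1.35 that includes 1. The rise of Cd8a was thus matched by Cd8b1 within counting error. The interval does not exclude a relative gain of Cd8b1 of up to 1.35-fold or a loss to 0.986-fold. Per kilobase of annotated exon, Cd8b1 stood at 1.99 times Cd8a in the control and at 2.30 times Cd8a in the cKO library. With the longest annotated transcript as the length these values were 1.71 and 1.98, so Cd8b1 was the more abundant chain per length in both libraries under both lengths.

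Relative to Cd3e, the epsilon chain of the T cell receptor complex, both CD8 chains gained more than on the deposited scale. Cd8a had 0.0968 (control) and 0.534 (cKO) reads per Cd3e read, a 5.52-fold difference (4.93 to 6.19). Cd8b1 had 0.0787 and 0.500 reads per Cd3e read, a 6.36-fold difference (5.63 to 7.20). Cd4 moved the other way, with 1.80 and 1.36 reads per Cd3e read, a ratio of 0.756 (0.714 to 0.801). For each Cd4 read there were 0.0536 (control) and 0.392 (cKO) Cd8a reads, a 7.30-fold difference (6.54 to 8.16). Cd8b1 per Cd4 changed 8.41-fold (7.46 to 9.49), from 0.0436 to 0.367.

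**Figure D2:**
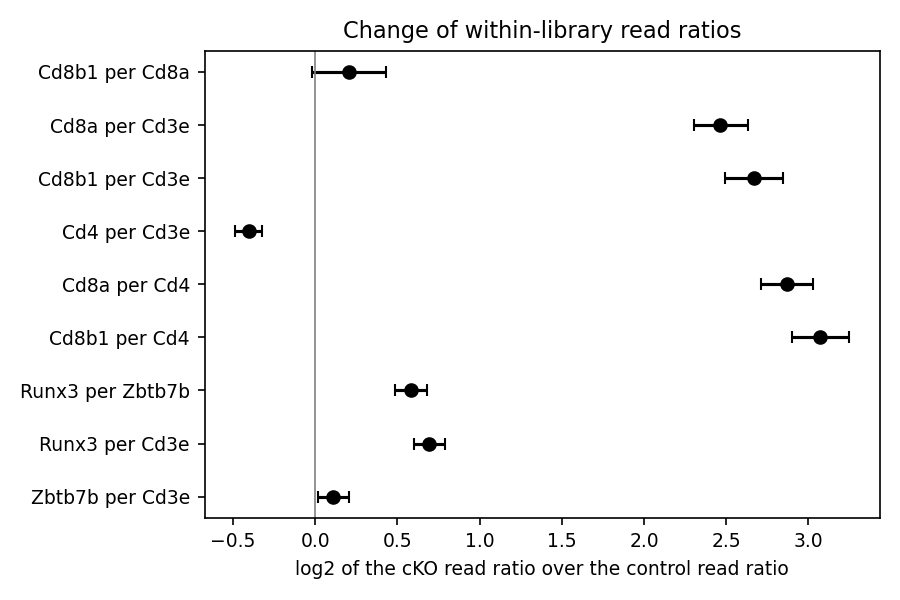
Log2 of the within-library read ratio in the cKO library over that in the control library, for 9 pairs of genes, with 95% exact conditional intervals that cover counting error only. Only the interval of Cd8b1 per Cd8a includes 0, and the ratios of either CD8 chain to Cd3e or Cd4 lie between 2.46 and 3.07.

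On a scale per length, Cd4 was the most abundant of the 5 genes in the control library, at 103 reads per kilobase of exon per 1000000 reads. Runx3 at 32.3 and Zbtb7b at 31.7 came next, with counting intervals that overlapped, followed by Cd8b1 at 12.2 and Cd8a at 6.10. In the cKO library Cd4 was at 63.0 and Cd8b1 at 62.8 on the same scale, then Runx3 at 42.5, Zbtb7b at 27.8 and Cd8a at 27.4. In that library the counting intervals of Cd4 and Cd8b1 overlapped, as did those of Zbtb7b and Cd8a. Cd8b1 per Cd4, at 0.119 per length in the control library, had become 0.997. With the longest transcript as the length it was 0.0914 and 0.768, so the near equality of Cd4 and Cd8b1 in the cKO library depended on the length used.

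On the deposited scale neither lineage factor was past 1.5-fold, whereas Runx3 was past it, at 0.80, with the T cell core genes scaled to be equal. Zbtb7b, the CD4 lineage factor, had levels of 3466 (3354 to 3582) and 3240 (3122 to 3361) in the control and cKO libraries, from 3583 and 2849 reads. Its log2 change was -0.10 (-0.17 to -0.03), next to a median of -0.04 over all genes tested. Runx3, the CD8 lineage factor, had levels of 3164 (3057 to 3275) and 4428 (4290 to 4569), from 3271 and 3894 reads. Its log2 change was 0.48 (0.42 to 0.55), or 1.40-fold. Runx3 is not restricted to CD8 T cells and is also made by NK cells and by several myeloid and B cell types. Within each library, Runx3 had 0.913 reads per Zbtb7b read in the control (0.870 to 0.958) against 1.37 in the cKO library (1.30 to 1.43), a 1.50-fold difference (1.40 to 1.60). Per Cd3e read, Runx3 changed 1.62-fold (1.52 to 1.73) and Zbtb7b 1.08-fold (1.01 to 1.16).

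Other transcription factors that act in the CD4 and CD8 lineage decision mostly stayed within 1.5-fold between the libraries. Of 14 such genes, 0 were at least 1.5-fold higher and 1 was at least 1.5-fold lower, beside 17.2% and 24.2% of all genes tested. The median log2 change of the 14 was -0.01. The lower gene was Myb, needed for T cell development and also for blood progenitors, which fell by 0.81 on the log2 scale, from 6159 to 2979 reads. Bcl11b, which keeps T cells in their lineage, changed by -0.54 (-0.60 to -0.48). Gata3, which acts upstream of Zbtb7b, had 1155 and 857 reads and changed by -0.20. Runx1 and Cbfb, the paralogue and the binding partner of Runx3, changed by -0.05 and -0.09, and Patz1 (MAZR), a repressor of Cd8, by 0.05. The genes with the most reads were Tcf7, at 15213 and 11607 reads (log2 change -0.16), and Ikzf1, at 14598 and 13634 reads (0.13). Satb1, a chromatin organiser of T cells, had the largest upward value, 0.50. Tox, Lef1, Zbtb7a, Tcf3 and Tcf12 lay between -0.21 and 0.36.

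Genes of the T cell receptor complex and its signalling were compared as a reference without any of the coreceptors. Over all genes tested, 17.2% were at least 1.5-fold higher and 24.2% lower. Of 15 T cell core genes, 0 were at least 1.5-fold higher and 2 were at least 1.5-fold lower (Trat1, -0.84, and Cd3g, -0.66), with a median of -0.32. Cd4 at -0.61 lay within the range of these genes, -0.84 to 0.08, whereas both CD8 chains lay above it. Cd247 changed by -0.58 and Lck, the kinase that both coreceptors bind, by -0.22. Among 10 Treg genes 2 rose (Lrrc32, 1.35, and Il2ra, 0.68) and 2 fell (Ikzf4 and Tnfrsf4, -0.71 and -0.68), with a median of -0.03.

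Genes that cytotoxic T cells share with NK cells did not rise as far as the CD8 chains. Over all genes tested, 17.2% were at least 1.5-fold higher and 24.2% lower. Of the 14 shared genes, 3 were at least 1.5-fold higher and 0 lower, and the median log2 change was 0.29. Those that rose were Klrd1 (CD94), by 0.88, Klrk1 (NKG2D), by 0.81, and the chemokine gene Ccl5, by 0.71 from 2473 to 3432 reads. Eomes and Tbx21, the T-box factors of effector cytotoxic cells, had 738 and 719 and 529 and 540 reads, with changes of 0.20 and 0.26. The granule genes Prf1, Gzmb and Nkg7 changed by 0.18, 0.48 and 0.34, each under 1.5-fold. Summed, these genes held 408 (control) and 545 (cKO) reads per 1000000 reads (RPM). NK cells of the mouse do not carry CD8 as a rule, and a list of genes taken as NK markers was given beside it. Of 9, 6 were at least 1.5-fold higher and 0 lower, with a median of 0.67 and sums of 139 and 219 RPM. Ncr1 (NKp46) rose by 0.67 from 541 to 733 reads, and Gzma, which had the most reads, by 0.84 from 966 to 1469 reads. Gzma is also made by cytotoxic T cells, so the sums of this list are not those of NK cells alone. The largest rise was in Klra4, by 2.74 from 9 to 56 reads, while Klrb1a had 29 and 24 reads and the lowest value, -0.04. Klrb1c (NK1.1) rose by 0.63 from 582 to 768 reads, as did Klra8 and Klri2 by 1.64 and 1.07, while Klre1 and Klra7 were at 0.29 and 0.08. The Klra genes are a family of near-identical copies, so how reads were divided among them is uncertain. Of 6 genes fixed for gamma delta T cells, only Sox13 was found, with 5 and 38 reads and a log2 change of 2.92 (1.81 to 4.86). Trdc, Tcrg-C1, Tcrg-C2, Tcrg-C4 and Trdv4 were absent from the deposited tables under these symbols.

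Of the 9 genes of the cDC1 list, 8 had a log2 change above 0, and the highest, 1.01, was under both CD8 chains. Xcr1, Clec9a and Batf3 are given first, although the list did not set these 3 apart beforehand. Xcr1, the chemokine receptor of cDC1, had 81 and 88 reads and a log2 change of 0.35 (-0.10 to 0.81). Clec9a, a receptor for dead cells on cDC1, had 174 and 124 reads and changed by -0.25 (-0.60 to 0.09). Batf3, a factor that cDC1 need to develop, had 62 and 58 reads and changed by 0.13 (-0.40 to 0.68). Clec9a was the only gene of the list below 0. Over all 9 genes the highest interval end was 1.08, that of Irf8, and the source of the CD8 transcripts was not tested. Of all 9 genes of the cDC1 list, 2 were at least 1.5-fold higher and 0 lower, beside 17.2% and 24.2% of all genes tested. The median of the list was 0.35. The genes past 1.5-fold were Irf8, by 1.01 from 2095 to 3579 reads, and Wdfy4, from 5693 to 9696 reads, both of which B cells also express. Tlr3, Cadm1, Ly75 and Naaa lay between 0.32 and 0.56, each with an interval above 0. The whole list summed to 583 and 956 RPM. Of 8 genes for cDC2, some of which carry CD4 in the mouse spleen, and for all conventional dendritic cells, 2 rose (Sirpa, 0.69, and Itgax, 0.65) and 0 fell. Their median was 0.10, with sums of 287 and 397 RPM, and Clec4a4 and Esam, which mark the CD4+ subset, had 60 and 56 and 39 and 33 reads. Of 7 genes for plasmacytoid dendritic cells, some of which carry CD8 alpha, 4 were at least 1.5-fold higher and 0 lower, with a median of 0.62 and sums of 121 and 149 RPM. Siglech rose by 1.16 from 105 to 200 reads and Ccr9, which T cells also express, by 0.98, while Klk1 and Cox6a2 had 6 and 11 and 5 and 7 reads, with intervals that include 0. With a minimum mean level of 10 the median of this list was 0.32.

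Markers of B cells and macrophages moved in the same direction as the CD8 chains, the macrophage markers over a wider range of sizes than the B cell markers. All 6 B cell markers were at least 1.5-fold higher, with changes from 1.94 to 3.10, a median of 2.37 and sums of 297 and 1499 RPM. All 8 macrophage markers were at least 1.5-fold higher, with changes from 0.85 to 3.46, a median of 2.63 and sums of 186 and 549 RPM. Cd8a and Cd8b1 lay inside both ranges. Over all genes tested, 17.2% were at least 1.5-fold higher and 24.2% lower. Of 6 granulocyte markers 2 rose and 0 fell (median 0.46, sums of 10516 and 14133 RPM). Of 6 erythroid markers 1 rose and 2 fell (median 0.08, sums of 421 and 519). The erythroid rise was in Hbb-bs, whose reads are divided with near-identical copies and are uncertain. None of the listed markers found in the tables was at 0 in either library, and the part that these other cells had in the results for the coreceptors was not tested.

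**Figure D3:**
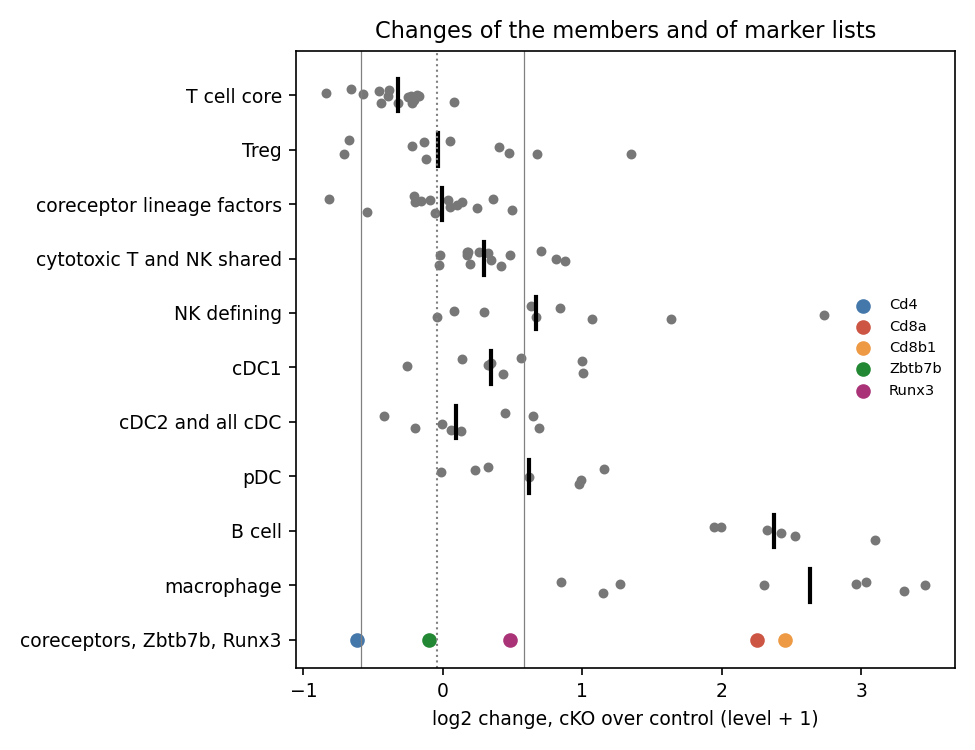
Log2 change (cKO over control, level plus 1) of each gene in 10 lists (grey points, list median as a black bar) and of the 5 coreceptor and lineage genes (coloured, bottom row). Solid grey lines mark 1.5-fold either way and the dotted line the median of all genes tested, -0.04. Cd8a and Cd8b1 lie above every gene of the T cell core, lineage factor, cytotoxic and dendritic cell lists and among the B cell and macrophage markers.

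The genes next to the members on the chromosome were read as a check of the loci. Rmnd5a, 9.46 kb beyond Cd8a, had 2317 and 2340 reads and a log2 change of 0.25 (0.16 to 0.33), and Rnf103, the next measured gene, changed by 0.50. Smyd1, a muscle gene 0.555 kb before Cd8b1, had 8 and 12 reads, and Gm1070 had 11 and 15, both with intervals that include 0. The intervals of Rmnd5a and Rnf103 ended below those of both CD8 genes. That of Smyd1 (-0.59 to 2.31) reached into them, so at its depth a difference from the CD8 genes was not detectable. Next to Cd4, Lag3, an inhibitory receptor related to CD4 that binds MHC class II, fell from 462 to 181 reads, a log2 change of -1.11 (-1.37 to -0.87), more than Cd4 itself. On the same side Ptms had 1335 and 1154 reads and changed by 0.02. On the other side Gpr162 had 35 and 42 reads, with an interval that includes 0, and P3h3 had 3 and 21. Around Zbtb7b, Dcst2 and Dcst1 changed by 0.23 and 0.09, Flad1 by -0.28, and Lenep, with 52 and 94 reads, rose by 1.07. Around Runx3, Syf2, Rsrp1, Clic4 and Srrm1 changed by 0.15, -0.02, -0.11 and 0.17.

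Likeness was measured as the Euclidean distance over log2 of the level plus 1 in the 2 libraries, which is a description of level and change and nothing more. The gene nearest to Cd8a was Blk, a kinase of B cells, at a distance of 0.125, with 413 and 1781 reads. Next came Tnfrsf13c, the BAFF receptor, at 0.300, and Cd8b1 at 0.313. The genes nearest to Cd8b1 were Siglecg, a B cell lectin, at 0.182, Blk at 0.188 and Hmox1, heme oxygenase of macrophages, at 0.218. For Cd4 they were Hmgb1 at 0.046, Tcp1 at 0.071 and Dek at 0.073. Zbtb7b was nearest to Cherp, Rrp1 and Kif1b and Runx3 to Pml, Rnf44 and Washc2, all within 0.037.

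Because the targeted gene encodes a subunit of the m6A writer complex, the letters GGACT, a common form of the m6A consensus, were counted on the sense strand of the longest coding transcript. They occurred 4 times in Cd4, 2 times in Cd8a, 2 times in Cd8b1, 7 times in Zbtb7b and 3 times in Runx3. Per kilobase this was 1.29, 0.639, 1.35, 1.62 and 0.772, against a median of 1.04 and quartiles of 0.628 and 1.52 over 16302 genes. Cd8a and Cd8b1 held the same count, and their densities lay on either side of that median through transcript length, 3128 and 1483 bases. A match is no evidence of a modified base.

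Of the scalings tried, the one that equalised the T cell core genes moved these values most. It shifted the median of all genes tested by 0.32 on the log2 scale, to 0.27, and the changes under it are read against that shift. Cd8a and Cd8b1 were then at 2.57 and 2.77, still far above the median. Cd4 was at -0.29 and no longer past 1.5-fold, Runx3 at 0.80 was past it, and Zbtb7b at 0.22 had changed sign. Among all genes tested, 60.3% of those past 1.5-fold were higher under this scaling, against 41.6% on the deposited scale. When the recovered reads of all genes were instead put to a binomial test (exact, two-sided, Benjamini-Hochberg adjusted p under 0.1), 4793 of 14863 genes were called at 1.5-fold or more. This was 32.2%, with 2111 higher and 2682 lower, and it compares the libraries, not the genotypes.

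**Figure D4:**
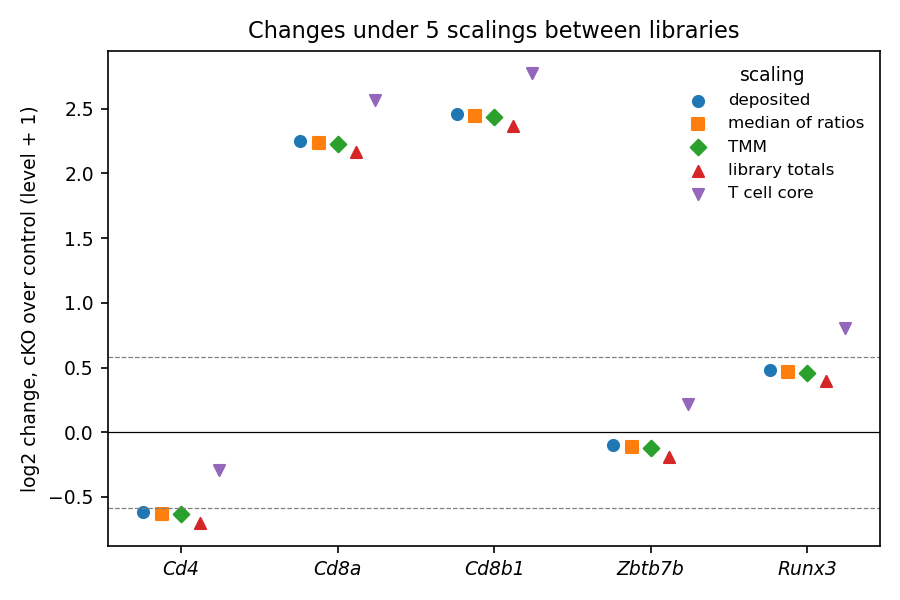
Log2 change (cKO over control, level plus 1) of the 5 genes under 5 scalings of the libraries, with dashed lines at 1.5-fold either way. Cd8a and Cd8b1 lie above 2 under each scaling, while Cd4 and Runx3 cross the 1.5-fold line and Zbtb7b crosses 0 when the T cell core genes are set equal.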

How the data were processed

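RNA-seq of splenic Treg cells gave 1 library per genotype. According to the methods, the authors used TopHat to align reads to mm10, whereas the submitters' processing notes name bcl2fastq 2.0, STAR, StringTie and DESeq2. The counting tool and annotation are not given in the sources used here. The deposited values are a signal per gene, namely read counts that the authors divided by 1 size factor per library, and whole reads were recovered by dividing by the smallest value above 0. The floor of 3 reads equals 0.148 RPM (control) or 0.164 RPM (cKO).

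Changes used a pseudocount of 1, a minimum mean level of 1 and the 1.5-fold threshold of the study's methods. Its threshold of 0.1, given without a quantity, was read as an adjusted p. The exact binomial test took TMM-scaled totals as its null share and genes with at least 10 reads. It was checked on simulated data that held counting error only, which cannot show how it behaves with variation between animals. Its p-values are not given for the members. Coordinates and lengths are from GENCODE vM21 (GRCm38). The members and the gene lists (T cell core, Treg, lineage factors, cytotoxic, NK, gamma delta T, cDC1, cDC2, plasmacytoid, B cell, macrophage, granulocyte and erythroid) were written from general knowledge with earlier results of these data known. The genes named are the members, Cd3e, Foxp3 and Mettl14, all genes of the lineage factor, NK and cDC1 lists, with values for the 2 most abundant and the largest rise and fall, 2 measured neighbours on each side, and the 3 genes nearest in level. Other list genes were named after their values were seen. Alternatives were pseudocounts of 0.1 and 5, filtering at a mean of 10 or not at all, the median-of-ratios, TMM, library total and T cell core scalings, a 2-fold threshold, the length used, and, added after seeing the data, the exact binomial test. Scaling factors came from edgeR 4.0.16 and DESeq2 1.42.0 in R 4.3.3, and everything else from scipy 1.17.1, matplotlib 3.10.9 and pandas 2.3.3 in Python 3.11.15.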

Additional observations from a re-analysis of the deposited data

How the results depend on the processing

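No paired analysis was possible because the groups share only 1 replicate number. For the same reason no library could be left out, and depth limits only the counting error. A list median has no counting interval of its own and was judged against a band, from the median lower to the median upper interval end of its genes. Pseudocounts of 0.1 and 5 and the median-of-ratios scaling left every member within its counting interval and every list median within its band. They left every count within 1.5 times the main count. TMM scaling did the same except for the granulocyte median (0.44). The absence of a filter on low values did the same for the counts and list medians, and it does not bear on the members, which pass the filter. With library totals set equal, Cd4 was at -0.70, Zbtb7b at -0.19 and Runx3 at 0.39, and the medians were -0.41 for T cell core genes, -0.10 for lineage factors and 0.37 for granulocyte markers. Scaling to equal T cell core genes adds about the same shift to each value by construction, and under it Cd4 was at -0.29, Cd8a at 2.57, Cd8b1 at 2.77, Zbtb7b at 0.22 and Runx3 at 0.80. The medians were then -0.00012 for T cell core genes, 0.28 for Treg genes, 0.31 for lineage factors, 0.61 for cytotoxic genes, 0.99 for NK genes, 2.69 for B cell markers, 0.78 for granulocyte markers and 0.40 for erythroid markers, and 4839 genes were at least 1.5-fold higher. The number of higher genes was 1722 at a 2-fold threshold, against 2864 at 1.5-fold. The number of lower genes was 2035 with a minimum mean level of 10 and 2682 with the exact binomial test, against 4028. Both test fewer genes, and the binomial test also uses other totals and an adjusted p, whose parts in the drop were not tested. The change of Cd8b1 per Cd8a between the libraries (1.15) does not depend on scaling or length.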
